A study of Schizosaccharomyces pombe with 4 samples.

Results

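Newly made histone H3 was compared along the chromosomes of fission yeast between an array labelled IRD2 and an array labelled wild type (WT), 2 of the 4 arrays in the series. Every tile of the design other than control spots was taken from both arrays, which gave 43993 tiles, and 43964 remained after spots marked as outliers in either array were left out. Each tile is a 60-base probe, and neighbouring tiles start 50 bp apart. The value of a tile was log2 of the FLAG signal (Cy5) over the whole-cell extract signal (Cy3), minus the median of its array, so that 0 is the array median and a difference of 1 is a doubling. Each genotype has 1 array. No difference between genotypes could therefore be tested, and every SD below is the spread over tiles, not over cultures.

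The Schizosaccharomyces pombe strains in the series were WT, clr3D, IRD2 and IRD2 clr3D; the labels write the genotype of the array analysed here as IR-D2 and give no definition of it. Clr3 is a histone deacetylase of heterochromatin, and clr3D cells lack it, so the WT and IRD2 strains both keep it. All strains, WT included, carried the plasmid pINV1-H3.2-FLAG, on which FLAG-tagged H3 is made when sucrose turns on an invertase promoter. Cells in medium without leucine and with 8% glucose were held in S phase with 15 mM hydroxyurea (HU) for 4 h and then kept for 2 h in 4% sucrose with the drug still present. They were fixed with formaldehyde and sonicated, and DNA bound by an anti-FLAG gel was labelled with Cy5. DNA of the whole-cell extract was labelled with Cy3 after the same random-primed amplification. A tagged H3 can be found at a site only if it was built into a nucleosome after the shift to sucrose, so the ratio reports new H3 per DNA of the extract.

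In fission yeast the silent mating-type region is a block of heterochromatin that holds the silent copies of the mating-type genes. It lies between a pair of inverted repeats that act as boundaries and keep heterochromatin from spreading into the genes outside. The repeats are known to hold B-box sequences, the element that transcription factor TFIIIC binds inside tRNA genes. Heterochromatin is known for slow exchange of its histones, while strongly transcribed genes lose and regain nucleosomes.

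The extract channel was examined first, because it shows which DNA a strain has. In IRD2, 18 tiles in 4 stretches had almost no extract signal, and these stretches were the outer ends of the 2 inverted repeats, each read by 2 sets of tiles: those of chromosome II and those of a separate mating-type contig on the array. On the left of the contig, 5 tiles had a median extract signal of 0.18 in WT and -8.79 in IRD2, a loss of at least 68.7-fold, since 4 of the 5 tiles were not well above background. On its right, 5 tiles went from 0.39 to -8.81, at least 79.5-fold lower. The chromosome II tiles of the same ends went from -0.094 to -8.59 on the left and from -0.077 to -8.79 on the right, at least 56.9-fold and 57.6-fold lower. The array labelled IRD2 thus lacked a short stretch at the outer end of each repeat, and the WT array held both. The IRD2 clr3D array lacked the same stretches (medians from -8.34 to -8.01), and the clr3D array held them (-0.82 to -0.25).

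The outer ends of the repeats are shown because they hold the DNA that was missing. In the RefSeq reference (assembly ASM294v3) the repeats were found by aligning the sequence between rpp202 and emc3 with itself: the left arm spans chrII:2129230-2131311 and the right arm chrII:2135018-2137098, with 2079 of 2082 aligned bases identical. Capitals mark GGTTCGA, the core letters of the B box, searched on both strands. Both ends are written from outside to inside, on the plus strand for the left (chrII:2129230-2129529) and the minus strand for the right (chrII:2136799-2137098).
left arm, outer end: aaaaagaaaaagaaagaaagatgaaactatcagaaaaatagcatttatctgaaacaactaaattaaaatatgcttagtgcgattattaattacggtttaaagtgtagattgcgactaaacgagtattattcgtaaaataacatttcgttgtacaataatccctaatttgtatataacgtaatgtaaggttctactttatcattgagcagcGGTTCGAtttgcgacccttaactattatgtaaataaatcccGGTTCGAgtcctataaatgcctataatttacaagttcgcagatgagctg
right arm, outer end: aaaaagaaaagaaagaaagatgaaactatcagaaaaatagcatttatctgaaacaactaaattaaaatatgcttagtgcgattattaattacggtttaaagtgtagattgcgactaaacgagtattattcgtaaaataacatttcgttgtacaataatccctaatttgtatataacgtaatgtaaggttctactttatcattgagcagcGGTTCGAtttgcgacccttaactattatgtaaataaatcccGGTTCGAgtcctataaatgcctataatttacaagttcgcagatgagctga
Once 1 base is left out, at position 7 of the left end, 299 bases of the 2 ends are equal. Each arm holds 2 matches, both in the stretch printed, and 127 of 6828 windows of 300 bases (1.86%) on the parts of chromosome II that were tiled hold at least 1. By the placement of the tiles inferred here, the chromosome II tiles without signal in IRD2 cover bases 82 to 291 of the left end and bases 79 to 288 of the right, stretches that include both matches. The letters describe the sequence only, and no binding was measured.

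Over the DNA that IRD2 kept between these lost stretches, the ratio was higher in IRD2. Across 368 tiles of the mating-type contig the median ratio was -0.19 in WT and 0.17 in IRD2, and the median difference was 0.32 (SD over tiles 0.28). The ratio was higher in IRD2 at 284 of the 368 tiles, against 48.2% of all tiles on the array, and the values also lay closer together, with an SD over tiles of 0.22 in IRD2 and 0.35 in WT. The 2 channels did not share this difference equally. The FLAG signal alone differed by -0.054 and the extract signal alone by -0.32: the extract signal over the region was 0.96 in WT and 0.65 in IRD2. The higher ratio therefore went with less extract DNA signal and not with more FLAG signal. Whether the extract difference reflects DNA copies, DNA recovery or another property of the extract was not tested.

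The change was uneven along the region. Over the repeat arms the median ratio was -0.31 in WT and 0.23 in IRD2, and all 74 tiles were higher in IRD2, by a median of 0.54 (SD 0.12; FLAG alone 0.056, extract alone -0.48). Over the left interior, from the left arm to 29 kb of the contig, it was -0.33 and 0.11, a difference of 0.44 (SD 0.21), with 121 of 128 tiles higher. The highest value of any 1-kb step lay there, at 25 kb, where WT stood at -0.56 and IRD2 at 0.10 (difference 0.68, SD 0.093; FLAG alone 0.12, extract alone -0.49). In the middle, from 29 to 33 kb, WT and IRD2 stood close, at 0.31 and 0.22, and only 15 of 80 tiles were higher in IRD2 (difference -0.064, SD 0.094). The extract signal over this middle was 2.77 in WT and 2.71 in IRD2, near the 2.48 and 2.47 of the outer centromere repeats, so these tiles read DNA of more than 1 place, and what the mating-type copy contributed cannot be told apart. The right interior lay between these, at -0.072 in WT and 0.11 in IRD2 (difference 0.16, SD 0.16), with 77 of 89 tiles higher. In the 1-kb steps that hold the lost stretches the remaining tiles had more FLAG signal in IRD2, by 0.51 at 19 kb (extract 0.30, ratio 0.17) and by 0.71 at 39 kb (extract 0.069, ratio 0.54).

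Part of this region is also read by tiles of chromosome II, on separate spots of the same arrays. Over 146 of them the ratio was -0.24 in WT and 0.26 in IRD2 (difference 0.42, SD 0.25), with 134 higher in IRD2. These tiles span 2131311 to 2138620 of chromosome II, against 19801 to 39260 of the contig. They cover less DNA, and the middle of the contig has no counterpart used here, so the medians are not over the same DNA. Where contig and chromosome II tiles read the same DNA, their differences had an SD between the sets of 0.12 over 430 tile pairs on the left and 0.16 over 74 on the right. This spread covers spot error within an array and no biological variation. It is smaller than the differences over the arms and the left interior and as large as that over the right interior. It is a spread of single tile pairs, so it is not the error of a median over many tiles. In the other arrays, which share no sample with WT and IRD2, the region hardly differed. It stood at 0.35 in clr3D and 0.37 in IRD2 clr3D, a median difference of 0.012 (FLAG -0.0018, extract 0.0016). The left interior differed by -0.017 in that pair and the right interior by 0.078. The arms stood at 0.075 and 0.18, a median difference of 0.10.

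**Figure D1:**
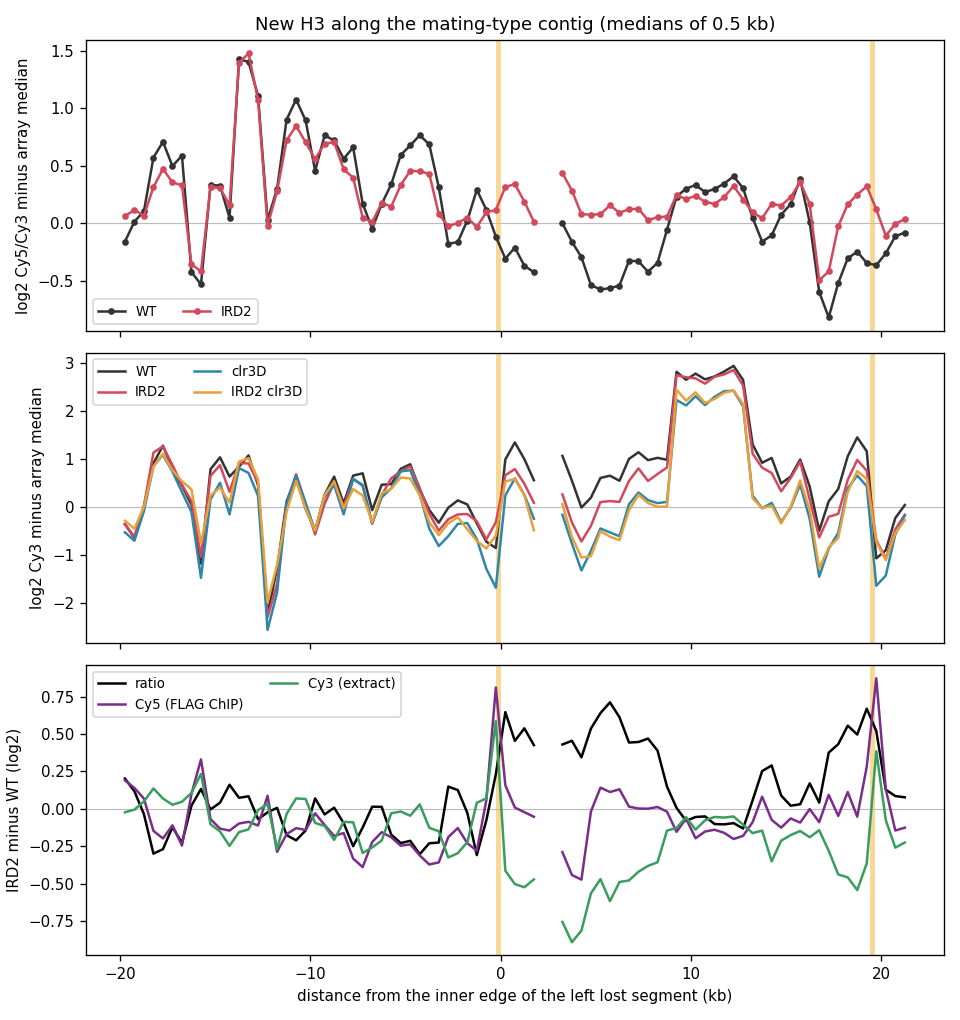
New H3 along the mating-type contig against distance in kb from the inner edge of the left lost stretch, as medians of 0.5 kb: the log2 FLAG over extract ratio of WT and IRD2 (top), the log2 extract signal of the 4 arrays (middle), and the IRD2 minus WT difference of the ratio and of each channel (bottom), with the lost stretches as vertical bands. The difference is above 0 over both arms (median 0.54) and the left interior (0.44) and near 0 over the middle of high extract signal (-0.064); the gap in the lines marks 21 tiles without extract DNA in any array.

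The genes just outside the lost stretches did not follow the region inside. The 10 kb to the left had a ratio of 0.39 in WT and 0.21 in IRD2 (difference -0.098, SD 0.19), with 63 of 200 tiles higher in IRD2. The 10 kb to the right had 0.073 and 0.049 (difference -0.010, SD 0.21), with 96 of 199 higher. In both flanks the FLAG signal alone was lower in IRD2, by -0.23, and the extract signal was lower too, by -0.11 on the left and -0.19 on the right.

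By distance, the left flank differed by -0.017 within 2 kb of the lost stretch, by -0.21 from 2 to 5 kb (WT 0.58, IRD2 0.34) and by -0.070 from 5 to 10 kb. The right flank was higher in IRD2 in the first 2 kb, by 0.12 (WT -0.14, IRD2 -0.018), with 33 of 39 tiles above 0. Beyond, it differed by 0.046 from 2 to 5 kb and by -0.19 from 5 to 10 kb. From 10 to 15 kb the ratio was 0.45 in WT and -0.014 in IRD2, with 1 of 100 tiles higher in IRD2 (difference -0.46, SD 0.19), and it was carried by the FLAG signal (-0.69) more than by the extract (-0.18). This stretch holds aha1, which encodes an activator of the Hsp90 chaperone, at 0.56 in WT and -0.014 in IRD2. From 15 to 20 kb the difference was back at 0.028.

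Of the 3 nearest genes on each side, those on the left were rpp202, which encodes a ribosomal P protein, at 0.30 in WT and -0.037 in IRD2 (difference -0.34), SPBC23G7.14 at -0.082 and -0.020 (0.062), and SPBC23G7.13c at 0.50 and 0.28 (-0.23). Those on the right were emc3, a gene of the endoplasmic reticulum membrane complex, at 0.014 and 0.083 (0.069), mtd1, a folate metabolism gene, at 0.065 and 0.080 (0.016), and srp40 at -0.064 and 0.019 (0.083). None reached a difference of 0.5 in either direction. FLAG signal alone was below 0 at all 6 (49.7% of all genes), with differences from -0.31 to -0.20.

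**Figure D2:**
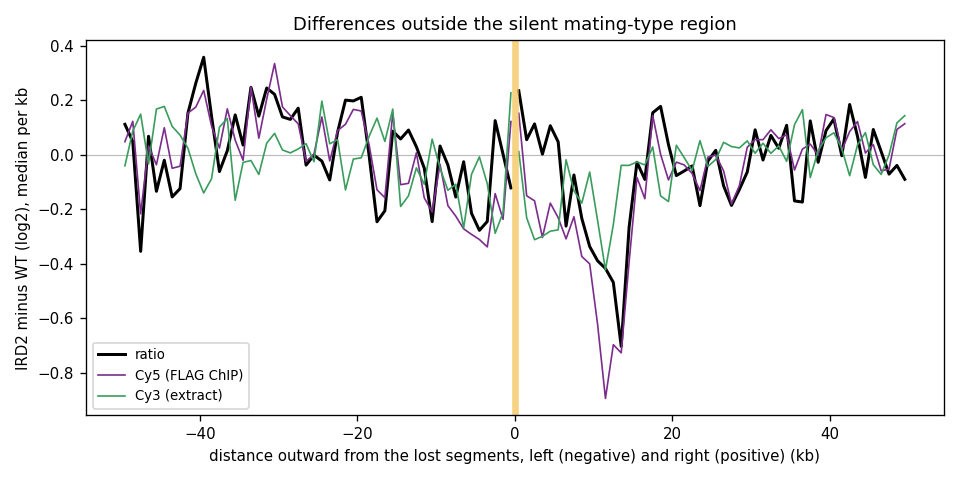
IRD2 minus WT difference of the log2 FLAG over extract ratio, and of each channel alone, against distance in kb from the lost stretches, left (negative) and right (positive), as medians per kb. The ratio and the FLAG signal dip together from 10 to 15 kb on the right (median -0.46 and -0.69) and return to near 0 beyond.

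Away from the mating-type region the largest differences were losses of new H3 over a few genes. Each of 897 protein-coding genes with at least 3 tiles was given the average of those tiles. Of these, 13 (1.45%) were lower in IRD2 by 0.5 or more and 0 (0%) higher by 0.5 or more; the threshold is a size, as there is no test. Across all genes 439 (48.9%) were below 0, a balance that follows from centring each array on its median, and the SD over genes was 0.20. Among single tiles, 1969 of 43964 (4.48%) were lower by 0.5 or more and 277 (0.63%) higher.

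The lowest of all was hsp16, whose product is a small heat shock protein. Its 18 tiles averaged -0.019 in WT and -2.67 in IRD2 (difference -2.65, SD 0.38), with FLAG alone at -2.17 and the extract alone at 0.49. The gene was dim in both channels in each array, and 9 of its tiles were not well above background; without them the difference was -2.48, and with a background model that adds an offset (normexp) it was -0.15. The depletion was not limited to the gene body: in 200-bp steps from the gene's start, IRD2 was lowest at 400 to 600 bp (-2.97, against -0.074 in WT), and the difference faded to -0.47 by 600 to 800 bp upstream and to -0.55 by 1400 to 1600 bp downstream of the start. In the 200 bp before the start WT itself stood at -0.68 and IRD2 at -2.50.

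Glycolytic genes came next. The enolase gene eno101 stood at 0.12 in WT and -1.68 in IRD2 (difference -1.80, SD 0.29), with the FLAG signal at -1.90 and the extract signal nearly equal at -0.088; the difference was -0.54 with normexp. The aldolase gene fba1 stood at 0.28 and -1.12 (difference -1.40, SD 0.20), again with the change in the FLAG channel (-1.35) and not in the extract (0.059). The glyceraldehyde-3-phosphate dehydrogenase gene tdh1 stood at 0.16 and -0.59 (difference -0.74, SD 0.32), with FLAG alone at -0.57 and the extract alone at 0.18. All tiles of these genes were lower in IRD2. The fourth measured gene of glycolysis, pfk1, for phosphofructokinase, stood at 0.24 and 0.073 (difference -0.16). There the change lay in the extract (0.14) more than in the FLAG channel (-0.032). At eno101 the lower ratio reached well upstream of the gene: 1000 to 1200 bp before its start WT stood at 0.23 and IRD2 at -1.08.

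Both promoters below are shown because their genes had the lowest values, and tdh1 because it is a glycolytic gene with the same motif; the promoters of fba1 and nmt1, whose values were lower than that of tdh1, hold no match. They run from 250 bases before to 50 after the annotated start in the RefSeq reference (ASM294v3), at chrII:2660943-2661242 on the minus strand for hsp16, chrII:2200946-2201245 on the plus strand for eno101 and chrII:2807345-2807644 on the plus strand for tdh1. Capitals mark TATANATA, a form of the TATA box, searched on both strands. Other forms were not searched, so a promoter without a match may still hold a TATA box.
hsp16 promoter: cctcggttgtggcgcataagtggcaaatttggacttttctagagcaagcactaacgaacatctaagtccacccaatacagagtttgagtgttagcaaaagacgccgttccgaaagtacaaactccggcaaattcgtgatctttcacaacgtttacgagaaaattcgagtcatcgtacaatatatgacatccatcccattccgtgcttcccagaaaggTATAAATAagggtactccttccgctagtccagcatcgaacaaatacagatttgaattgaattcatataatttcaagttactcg
eno101 promoter: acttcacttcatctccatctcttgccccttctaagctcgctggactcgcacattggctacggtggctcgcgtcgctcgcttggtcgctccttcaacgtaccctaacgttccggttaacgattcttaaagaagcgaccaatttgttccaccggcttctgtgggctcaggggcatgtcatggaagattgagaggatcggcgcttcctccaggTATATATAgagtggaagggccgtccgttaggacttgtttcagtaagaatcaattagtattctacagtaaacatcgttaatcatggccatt
tdh1 promoter: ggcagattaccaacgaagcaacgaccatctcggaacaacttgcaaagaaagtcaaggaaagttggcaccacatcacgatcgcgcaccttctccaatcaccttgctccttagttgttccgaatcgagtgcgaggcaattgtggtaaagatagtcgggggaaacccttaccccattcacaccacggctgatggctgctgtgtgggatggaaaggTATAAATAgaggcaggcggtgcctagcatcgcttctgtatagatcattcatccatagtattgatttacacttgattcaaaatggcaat
The motif was present in 164 of 897 promoters (18.3%), in 8 of the 15 genes with the lowest differences and in 2 of the 15 with the highest. These genes were picked by their differences, so the counts are a description. Of the 164 genes with the motif, 7 were past the threshold, as were 13 of all 897 genes (1.45%). The median difference of the 164 was -0.0068, against 0.0032 for genes without the motif. The differences are averages over gene bodies and not over promoters. Another motif, a form of the heat shock element, was also searched in the 897 promoters and was present in 3 (0.334%). Of the 15 genes with the lowest differences, hsp16 among them, 0 held it. Of its 3 genes, 0 were past the threshold.

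Among the other genes past the threshold, nmt1, a thiamine synthesis gene on chromosome III that cells without thiamine transcribe strongly, stood at 1.19 in WT and 0.15 in IRD2 (difference -1.04, SD 0.18). FLAG alone differed by -0.71 and the extract alone by 0.34. The ratio at nmt1 was also low in the other strains, at 0.47 in clr3D and 0.19 in IRD2 clr3D, so the WT array stood apart from the other 3. The coactivator gene mbf1 stood at -0.12 and -0.81 (difference -0.69), mug124 at 0.64 and -0.031 (-0.67) and aha1, named above, differed by -0.57. Of these, mug124 neighbours fba1 and is not a separate observation from it. Then came SPBC1921.04c at 0.88 and 0.37 (-0.51) and rpl26, a ribosomal protein gene, at 0.52 and 0.012 (-0.51). Below these, past no threshold, were the invertase gene inv1 at 1.04 and 0.55 (-0.49) and tim18, a gene of the mitochondrial import machinery, at 0.44 and -0.051 (-0.49).

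The genes for histones H3 (hht2) and H4 (hhf2) stood at 1.503 and 0.79 in WT and at 0.92 and 0.25 in IRD2, differences of -0.58 and -0.54. They neighbour each other and are not separate observations. At hht2 the extract signal differed by 0.44 and the FLAG signal by -0.15, and at inv1 by 0.34 and -0.16. The plasmid is named for an invertase promoter and H3.2, the H3 that hht2 encodes, and the part of plasmid DNA in the signal at these genes was not tested. At SPBC32H8.15, with 6 tiles, the ratio went from -0.86 to -1.46 (-0.60) wholly through the extract signal (0.65), and FLAG alone differed by 0.041. Of the 13 genes past the threshold, 7 were also lower by 0.5 or more in the FLAG channel alone, a size reached by 12 of all 897 genes (1.34%). The 13 were picked by the ratio, which contains the FLAG signal.

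**Figure D3:**
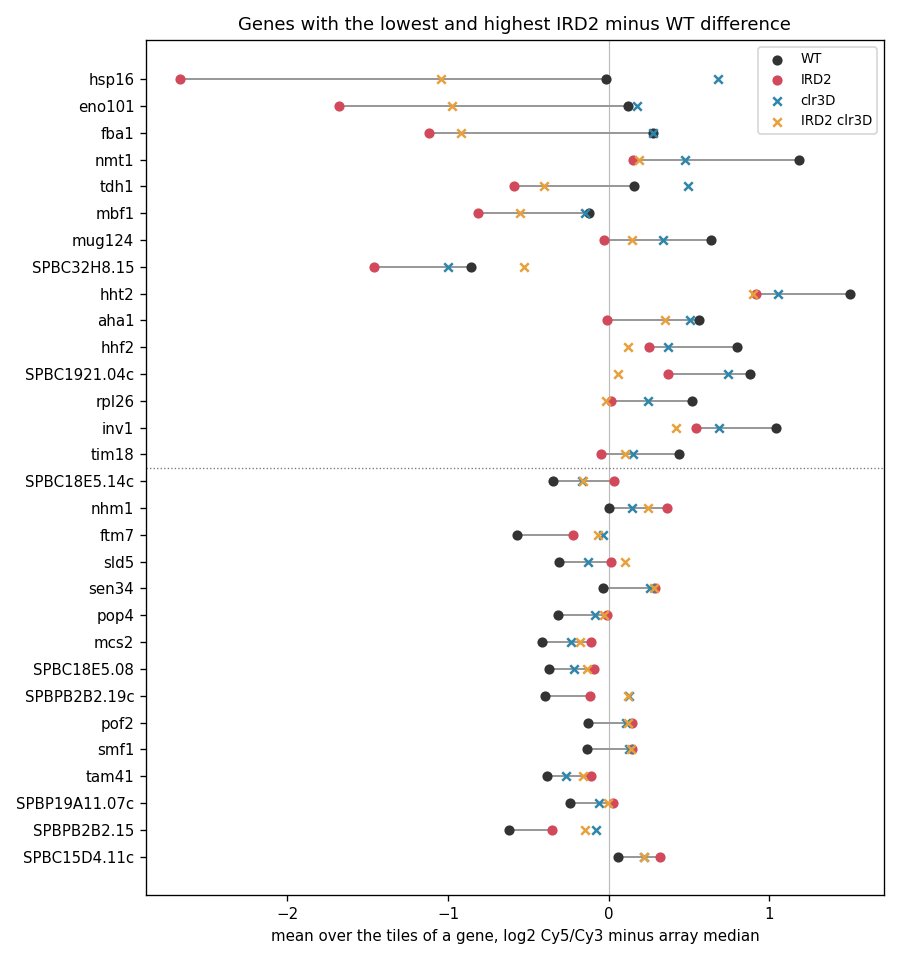
Log2 FLAG over extract ratio of the 15 genes with the lowest and the 15 with the highest IRD2 minus WT difference, in each of the 4 arrays. The lowest run from -2.65 at hsp16 to -0.49 at tim18; the highest reach only 0.38.

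Gains over genes were small. The highest value was SPBC18E5.14c, at -0.35 in WT and 0.030 in IRD2 (difference 0.38, SD 0.12), followed by nhm1, which encodes an mRNA cap hydrolase, at 0.0031 and 0.36 (0.36), and ftm7 at -0.57 and -0.22 (0.35). Then came sld5, for a subunit of the GINS replication complex, at -0.31 and 0.011 (0.32), sen34, for a tRNA splicing endonuclease subunit, at -0.034 and 0.29 (0.32), pop4, for a subunit of RNase P, at -0.32 and -0.0088 (0.31), and mcs2, for a cyclin of the transcription machinery, at -0.42 and -0.11 (0.31). Of the 15 highest, 13 lay below 0 in WT, and a choice by IRD2 minus WT favours genes that are low in WT. FLAG signal alone was higher in all 15 (50.3% of all genes) and the extract signal lower in 14 (45.5% of all genes). The 15 were picked by the ratio, which contains both channels, so these counts follow largely from the choice. The genes nhm1, sld5 and pop4 neighbour each other, as do SPBC18E5.08 and SPBC18E5.14c, and such neighbours are not separate observations.

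The IRD2 clr3D and clr3D arrays, which differ by the same lost stretches but share no sample with WT and IRD2, were set beside these genes. At hsp16 the ratio was 0.68 in clr3D and -1.04 in IRD2 clr3D, at eno101 0.18 and -0.98, at fba1 0.28 and -0.92, and at tdh1 0.49 and -0.40. Both arrays without the repeat ends were thus lower than both arrays with them at these 4 genes. The same held for 12 of the 13 genes past the threshold and for 169 of the 439 genes below 0 (38.5%), the genes that could meet it. The exception was SPBC32H8.15, with -0.998 in clr3D and -0.53 in IRD2 clr3D. At 11 of the 15 highest genes both arrays without the repeat ends were above both others, as at 175 of the 458 genes above 0 (38.2%). Both sets were picked for wide gaps between IRD2 and WT, which makes this order easier to meet. The shares among all genes below or above 0 are therefore not a like background for them. Over all genes the differences of the pairs had a Pearson r of 0.58 and a Spearman rho of 0.31, a description across genes of 4 arrays hybridised on 1 slide. Neither pair has a repeat, and what else the 2 cultures without the repeat ends had in common was not tested.

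**Figure D4:**
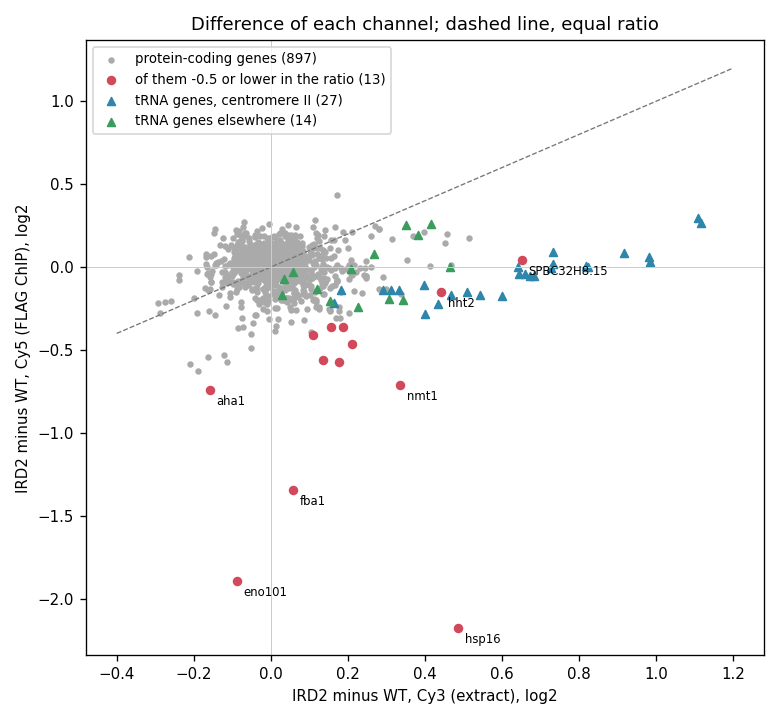
IRD2 minus WT difference of the FLAG (Cy5) and extract (Cy3) signals of each protein-coding gene (circles) and tRNA gene (triangles), on the log2 scale; on the dashed line the ratio is equal. The glycolytic genes eno101 and fba1 lie low in FLAG at near-equal extract (eno101 -1.90 and -0.088). In contrast, SPBC32H8.15 lies high in extract at near-equal FLAG (0.65 and 0.041), as the tRNA genes do (median 0.43 and -0.056).

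Runs of at least 5 tiles in a row, each lower by 1 or more, show where depletion was continuous; such tiles made up 0.739% of the array, and those higher by 1 or more 0.0432%. There were 13 such runs, with 218 tiles in all, and 0 runs higher by 1 or more. The longest covered eno101 and its surroundings, with 41 tiles (2060 bp) at a median of -1.61, and hsp16 had 31 tiles (1560 bp) at -2.37, of which 17 were not well above background. A run of 27 tiles lay over fba1 (-1.46). A run of 29 tiles (1460 bp) lay over annotated non-coding RNA genes, among them mamRNA, SPNCRNA.5124 and the short small nucleolar RNA gene snoU14, at 0.66 in WT and -0.63 in IRD2 (-1.25). Some others lay upstream of protein-coding genes, over annotated non-coding RNA genes. A run of 16 tiles before eno101 lay over no annotated gene, and runs of 7 and 16 tiles lay over tdh1 and nmt1. A run of 22 tiles before mas5, which encodes a DNAJ chaperone, lay over SPNCRNA.1409 and SPNCRNA.337 and stood at 0.18 in WT and -1.35 in IRD2 (-1.42), while mas5 itself differed by -0.40. In all 13 runs the median FLAG signal alone was lower by 0.5 or more, as at 2.54% of all tiles; the runs were chosen by the ratio, which contains the FLAG signal.

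**Figure D5:**
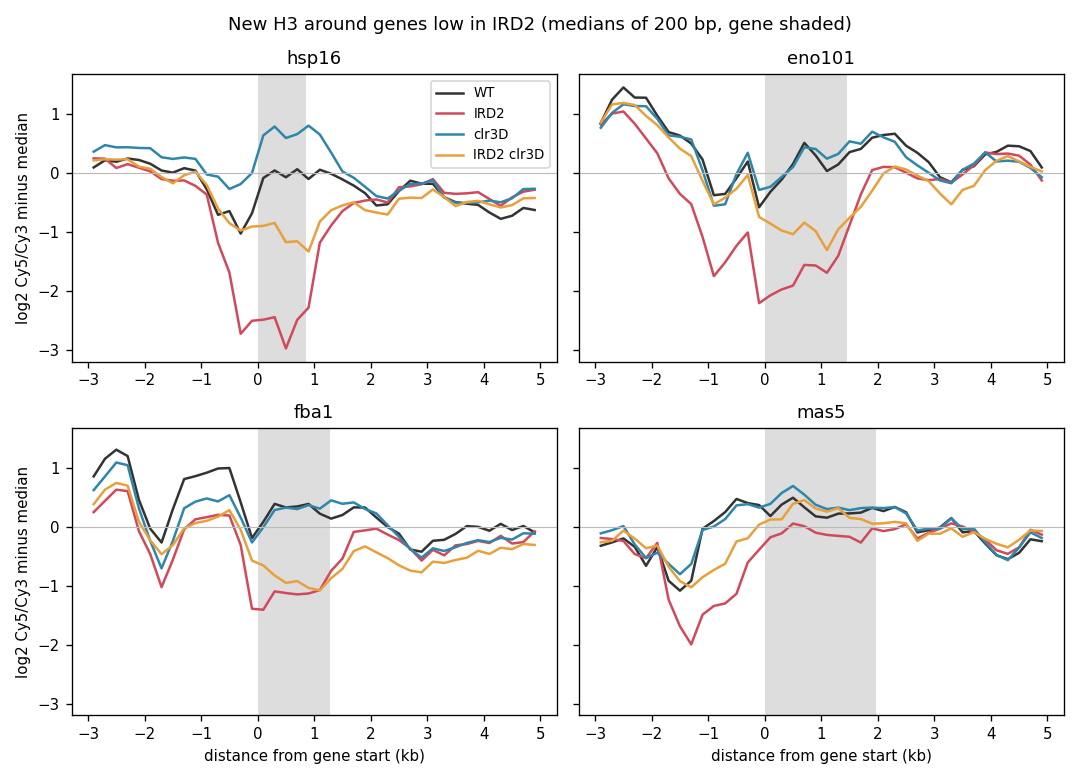
Log2 FLAG over extract ratio of the 4 arrays in medians of 200 bp around hsp16, eno101, fba1 and mas5, against distance in kb from the gene's start, with the gene shaded. IRD2 falls to -2.97 within hsp16 and to -2.20 just upstream of eno101, and at mas5 the gap lies upstream of the gene.

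By gene list, lower values were seen in a few groups. The lists and their members were chosen with earlier results of these data known, so the counts are a description. All 4 measured glycolytic genes (of 13 listed) were below 0, and 3 were past -0.5, with a median of -1.07; of all genes 48.9% were below 0 and 1.45% past -0.5. Of 6 measured heat shock and chaperone genes (of 24), 5 were below 0 and 2 past -0.5: besides hsp16 and aha1, mas5 differed by -0.40, hsp78, a mitochondrial chaperone gene, by -0.32, sks2, an Hsp70 gene, by -0.29 and cdc37, an Hsp90 partner gene, by 0.052. All 4 stress genes (of 13) were below 0 and 0 past -0.5: gpx1, for glutathione peroxidase, went from 0.34 to -0.063 (-0.40), wholly in the extract channel (0.41; FLAG 0.0072), and wis1, a kinase gene of the stress pathway, differed by -0.27. Of 25 ribosomal protein genes measured (of 144), 24 were below 0 and 1 was past -0.5, rpl26 at -0.51. Their median ratio was 0.26 in WT and -0.0048 in IRD2, with a median difference of -0.24 (FLAG -0.14, extract 0.11). In the other pair of arrays their median difference was -0.025.

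In the other lists 0 genes were past -0.5, apart from the 2 core histone genes above. The 11 measured DNA replication genes (of 41) had a median of 0.11, with 4 below 0 and a range from -0.25 at cdc18, the licensing factor gene, to 0.32 at sld5. Of 7 heterochromatin and boundary factor genes (of 34), 1 was below 0 and the median was 0.075; sfc3 and sfc6, subunits of TFIIIC, differed by 0.097 and 0.15, and clr1, a heterochromatin gene, by 0.12. The 3 meiotic genes had a median of 0.059 and the 3 auxotrophy marker genes one of -0.17. The histone variant gene pht1 differed by 0.016. The tiles named mat1-Mc and mat3-Mc stood at 0.35 and 0.33 in WT and both at 0.38 in IRD2 (differences 0.024 and 0.045), and the mating-type cassettes share sequence, so that these tiles also read copies elsewhere.

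Genes were also ordered by their ratio in clr3D, an array that does not enter the difference. Of the 180 genes with the highest ratios there, at a median of 0.39 in WT and 0.31 in IRD2, 60.0% were below 0 and 8 were past -0.5. Of the 180 with the lowest, at -0.20 and -0.19, 43.9% were below 0 and 1 was past -0.5. Thus 8 of the 13 genes past the threshold had much new H3 in an array outside the comparison.

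Genes transcribed by RNA polymerase III had lower ratios in IRD2 without exception. All 41 tRNA genes (with 500 bp on either side) were below 0, and 22 were past -0.5, against 48.9% and 1.45% of protein-coding genes. With overlapping windows joined they form 18 separate stretches, 4 of them in centromere II, so they are not 41 separate observations. Their ratios ran from -1.82 to 0.18 in WT (median -0.83) and from -2.17 to -0.071 in IRD2 (median -1.40). The median difference was -0.63. It lay in the extract, which was higher in IRD2 at every tRNA gene (median 0.43), and hardly in the FLAG signal (median -0.056). Between IRD2 clr3D and clr3D the median difference was -0.29, with the extract at 0.15. For that pair the extract differed by 0.11 at the genes of centromere II and by 0.36 elsewhere. The 27 genes of centromere II went from a median of -0.89 to -1.55 (differences from -0.95 to -0.31), and the 14 elsewhere from -0.25 to -0.57 (differences from -0.54 to -0.081; median -0.20). Of the latter, 1 was past -0.5. The 5 5S ribosomal RNA genes on chromosome II, also polymerase III genes, stood at 0.59 in WT and 0.10 in IRD2 (median difference -0.48), with FLAG at -0.32 and extract at 0.19.

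At the ribosomal RNA genes on the left end of chromosome III, 461 tiles had a median ratio of -0.60 in WT and -1.24 in IRD2 (difference -0.54, SD 0.24), again through the extract (0.47) and not through FLAG (-0.077). These genes are a long array of repeats whose copy number varies between strains, and copy number was not measured. Their ratio was -1.20 in clr3D and -2.52 in IRD2 clr3D. Between those arrays both channels differed, FLAG by -0.62 and the extract by 0.65.

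Within centromere II the parts differed. The tRNA clusters that border it stood at -0.85 on the outer left in WT and -1.62 in IRD2 (difference -0.73, SD 0.21) and at -0.81 and -1.61 on the outer right (-0.80, SD 0.22), while both inner clusters differed less, by -0.55 and -0.59. Of the 195 tiles in these clusters, 0 were higher in IRD2. Their FLAG signal alone differed by -0.092 and the extract alone by 0.63. Between IRD2 clr3D and clr3D the same tiles differed by -0.34, but with FLAG at -0.31 and the extract at 0.064. The channel that carried the lower ratio was thus not the same in both pairs. The outer repeats, which carry heterochromatin of the same kind as the mating-type region, stood at 0.085 and -0.0039 (difference -0.093, SD 0.14; FLAG -0.15, extract -0.043), with 109 of 588 tiles higher. The repeats on the left and right differed alike, by -0.096 and -0.088. In the central domain, where the H3 variant CENP-A takes the place of much H3, the ratio was -3.10 and -3.31 (difference -0.20, SD 0.30); it was 0.29 with normexp. In both arrays the central domain was the lowest of the domains measured and the tRNA clusters were next.

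The right end of chromosome II showed opposite differences within 50 kb. Over the whole, 999 tiles stood at -0.019 in WT and 0.088 in IRD2 (difference 0.11, SD 0.31; FLAG 0.072, extract -0.012), with 696 higher; over tiles that match 1 place it was -0.11. The outermost 4 kb went from -0.028 to -0.83 (difference -0.81, SD 0.35), with 4 of 80 tiles higher and most of the change in the extract (0.50; FLAG -0.23). From 20 to 30 kb inward the ratio was 0.13 and 0.31 (0.19), from 30 to 40 kb -0.21 and -0.048 (0.19) and from 40 to 50 kb -0.46 and -0.24 (0.18). In these 3 bins FLAG alone differed by 0.066, 0.12 and 0.20 and the extract by -0.075, -0.045 and 0.019. Of the named genes, ftm7, SPBPB2B2.19c and SPBPB2B2.15 lie in this end, and SPBPB2B2.15 went from -0.62 to -0.36 (0.27; FLAG 0.43, extract 0.17).

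Over all 43964 tiles the ratio of WT and IRD2 had a Pearson r of 0.81, and that of WT and clr3D 0.88. The difference moved weakly with base composition: with tiles in 5 equal bins by GC content, its median was 0.038 in the lowest bin and -0.12 in the highest. Tiles in genes had a median of 0.00088, tiles between convergent genes -0.0089, between tandem genes -0.016 and between divergent genes -0.058, where the extract signal was 0.10 higher in IRD2. The parts that base composition and extract preparation play in the lower values at tRNA genes and upstream regions were not tested.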

How the data were processed

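Each of the 4 genotypes was hybridised to 1 two-colour Agilent 60-mer tiling array, all on 1 slide and in 1 scan per the file headers. The deposited spot intensity values are, per the file headers, those of Agilent Feature Extraction 12.0.3.1, background-subtracted and with 1 linear dye factor per channel. The authors' deposited log10 values are the log of red over green, and were read only to check the direction. The deposited series matrix holds a linear ratio that equals processed Cy5 over processed Cy3 and is not centred.

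Control spots and outlier spots (9 in WT, 20 in IRD2) were left out; no spot was saturated. The log2 ratio of each deposited array was centred on its median, with no loess or quantile step, since histones cover most of the DNA tiled. In every array, 43811 to 43879 spots rose well above background in both dyes. The number of arrays, 1 per genotype, limits the precision. A gene needed at least 3 tiles. Named genes were the 15 lowest and 15 highest whose tiles all differed in 1 direction, the 3 nearest to the lost stretches on each side, members of gene lists, and runs of at least 5 tiles past 1. With 1 array per genotype there is no test. The members and lists were chosen with earlier results of these data known.

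The headers name no genome build. Tiles were placed on ASM294v3 by matching extract signal to GC content in 30 windows, with each assembly gap of 100 bp taken as 1000 bp. Gene names rest on this placement, and positions of tiles are those of the files. The short pieces around nmt1 and inv1 were not covered by those windows. The middle of the mating-type contig has no counterpart used here. Repeats were found with blastn 2.17.0. The other settings were Cy5 alone, normexp (offset 50) and loess (span 0.3) in limma 3.58.1 under R 4.3.3, scaling to one median absolute deviation, no centring, well-measured tiles, tiles matching 1 place, a threshold of 1 and medians over tiles. Normexp used spot medians in place of the planned means. The gene step was tested on simulated data.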

Additional observations from a re-analysis of the deposited data

Results flagged for a closer look

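SPBC32H8.15 moved in opposite directions in the pairs of arrays that differ by the lost repeat ends: its ratio differed by -0.60 between IRD2 and WT and by 0.47 between IRD2 clr3D and clr3D. With 1 array per genotype this difference between the pairs was not tested. The gene has 6 tiles, and FLAG alone differed by 0.041 between IRD2 and WT.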

How the results depend on the processing

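No paired analysis was possible because each genotype has 1 array. Of 75 values recomputed for regions and counts, 60 moved by less than the 0.16 SD between the tilings that read the same DNA (counts: within 1.5 times). That SD is of single tile pairs, a wide limit for medians over many tiles, and some values were smaller than it. Among the 60, the right flank (-0.010) changed sign under 4 settings: loess (0.0081), scaling to one median absolute deviation (0.0032), no centring (0.029) and tiles matching 1 place (0.0066). With Cy5 alone the mating-type region turned to -0.054, the right flank moved to -0.23, the central domain to -0.39, the ribosomal RNA genes to -0.077 and the tRNA genes to -0.056. With normexp the central domain turned to 0.29, and 32 genes were lower, 11 of them among the 13, and 1 was higher. Scaling to one median absolute deviation gave -0.77 for the central domain, -0.76 for the ribosomal RNA genes and -0.82 for the tRNA genes. Over tiles that match 1 place the right end turned to -0.11 and the tRNA genes moved to -0.46; the ribosomal RNA genes have no such tile and gave no value. The tRNA genes outside centromere II, a choice made after seeing the data, gave -0.20. A threshold of 1 left 4 genes lower. Of 285 values for named genes 256 moved by less than that SD, and 6 changed sign. With Cy5 alone these were SPBC32H8.15 (0.041), SPBC23G7.14 (-0.20), emc3 (-0.21), mtd1 (-0.28) and srp40 (-0.22), and with normexp mtd1 (-0.016). The causes were not tested.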
